A study of Mus musculus with 36 samples.

Results

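The response of the cytoplasmic RNA to 24h of hypoxia was compared between C166 cells and C1.1 cells, gene by gene, as the difference of the log2 responses. The measure is the change from normoxia to 24h in C1.1 minus the same change in C166, so a positive value is a response that was higher in C1.1. All gene rows of the count table entered, 26400 in number, of which 14998 had enough counts in the cytoplasm to be tested. The comparison used 12 of the 36 libraries of the series, 3 in each of 4 groups: C166 in normoxia, C166 after 24h at 1% oxygen, C1.1 in normoxia and C1.1 after 24h at 1% oxygen. C166 is a mouse line derived from yolk sac endothelium. C1.1 is 1 clone grown from a sorted C166 cell after Cas9 and a pair of guide RNAs had removed 1 miR-466c hairpin from an intron of Sfmbt2. The paper states that this intron holds further miR-466c hairpins, and that losing this copy was enough to lower miR-466c strongly. C1.1 was set against the untouched parent and not against a sorted control clone, so the effect of the deletion and that of the clone cannot be told apart. The labels number 3 replicates a group without saying that they came from separate dishes, and the spread behind each p-value may therefore be technical.

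The guide oligos that define the C1.1 line are shown as the study ordered them, 5′ to 3′, with the 17 bases that match the cloned stretch of the Sfmbt2 intron (chromosome 2) in capitals and the cloning overhang in lower case.
guide RNA 1: gatccgCATATACACATACATAG
guide RNA 2: gatccgTGAGCACACAGACACAG
Both matches were followed by GGG in that stretch, guide RNA 1 on its minus strand and guide RNA 2 on its plus strand.

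Cells short of oxygen stop hydroxylating the HIF alpha subunits, which then enter the nucleus and raise transcription of glycolytic enzymes, glucose transporters, Vegfa and regulators of mitophagy. Over hours of hypoxia cells also retune lipid synthesis through the SREBP factors, amino acid synthesis through ATF4, and the actin programme that SRF and its actin-sensing cofactors drive. MicroRNAs of the miR-466 family are made from a large intronic cluster of Sfmbt2. Mature miRNAs mostly lower their targets through sites in the mRNA, and nuclear roles have been described as well.

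The 12 libraries held 22316184 to 28404375 counts, and 11 of them detected 15275 to 18768 genes. Replicate 1 of C166 in normoxia stood apart with 11903 genes detected, and the 24h difference was recomputed without it. Endothelial markers were nearly absent: Cdh5, Kdr and Tie1 had no count in either C166 group, and the summed level of the 13 endothelial markers in the table was 4.54 to 8.32 CPM (counts scaled to library size with TMM factors) in C166 in normoxia. Blood cell markers summed to at most 6.81 CPM in any library of the 4 groups, and 5 epithelial markers to 27.2 to 33.6 and 144 to 157 CPM in C166 in normoxia and at 24h and to 11.6 to 18.7 and 58.1 to 74.4 CPM in C1.1. In each group just 1 of these 5 epithelial markers had a mean of at least 1 CPM. The summed level of 24 smooth muscle contractile genes was 12077 to 14668 CPM in C166 in normoxia and 5337 to 5968 CPM in C1.1 in normoxia. RNAs known to stay in the nucleus, led by Malat1, were found in the cytoplasmic libraries at 3891 to 5184 CPM in C166 in normoxia, 8756 to 9372 CPM in C166 at 24h, 2962 to 3034 CPM in C1.1 in normoxia and 4200 to 6940 CPM in C1.1 at 24h, the last value in replicate 1. Their part in the results below was not tested. Sfmbt2, the host gene, had reads outside the removed hairpin and does not check the deletion. It rose 1.30 ± 0.14 (SE) on the log2 scale in C166 and 1.32 ± 0.14 in C1.1, a difference of 0.02 ± 0.20 (edgeR adjusted p = 0.98).

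The 24h response differed between the lines for 350 of 14998 genes, 2.33% of those tested, at an adjusted p under 0.05 in edgeR's quasi-likelihood test with Benjamini-Hochberg adjustment. It was higher in C1.1 for 209 genes (1.39%) and lower for 141 (0.940%). Over all genes tested, called or not, 6592 differences were positive and 8406 negative. The counts of calls and signs in the gene lists below are to be read beside these. The median was 0.81 among the higher genes and -0.84 among the lower genes on the log2 scale, and 73 and 47 of them reached 2-fold. Leaving out 1 library at a time gave 184 to 503 called genes, and 149 of the 350 were called in every one of these 12 fits, 98 higher and 51 lower. DESeq2 called 821 genes, among them 342 of the 350. The fit of the 12 compared libraries alone, without those taken at 2h, called 144 genes, of which 142 were among the 350 (40.6% of them).

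The higher genes were mostly genes that did not rise in C166. Of the 209, 75 rose in C1.1 and were not called in C166, 50 fell in C166 and were not called in C1.1, 44 rose in both lines, 28 fell in C166 and rose in C1.1, and 12 fell in both. Of the 141 lower genes, 41 fell in C1.1 and were not called in C166, 30 rose in both, 29 rose in C166 and were not called in C1.1, 22 fell in both, and 19 rose in C166 and fell in C1.1. Among all genes tested, 18.2% were called up and 17.5% down in C166, with 18% up and 18.1% down in C1.1. These shares use the same libraries as the difference and describe it.

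**Figure D1:**
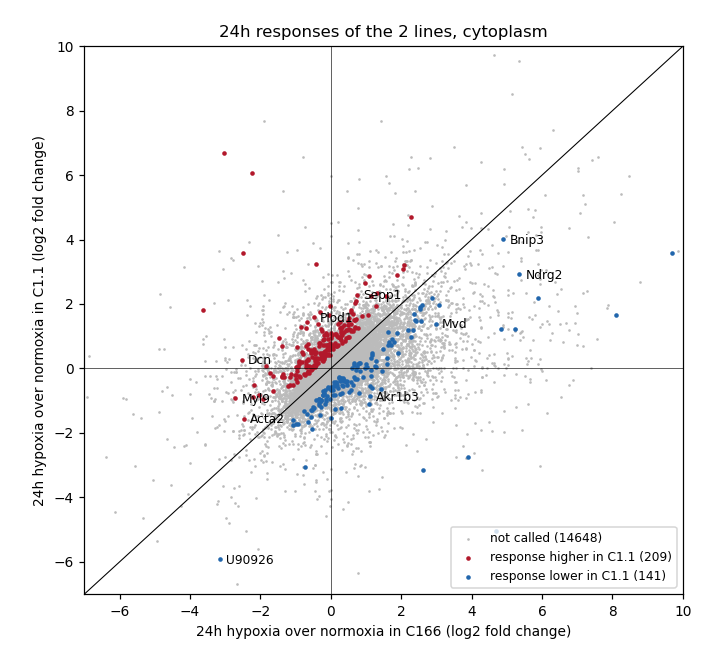
Log2 fold change of 24h of hypoxia over normoxia in C166 (horizontal axis) and in C1.1 (vertical axis), 1 point a gene, for the 14998 genes tested in the cytoplasm (3 lie outside the axes). Red points are the 209 genes with a higher and blue points the 141 genes with a lower response in C1.1, which lie above and below the line of equal responses, Dcn and Myl9 among the first and Ndrg2 and Mvd among the second.

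The contractile genes of smooth muscle gave the largest count of higher responses among the lists. Of 22 tested, 8 had a higher response in C1.1 and none a lower one, with a list median of 0.61 beside -0.07 over all genes, and 14 fell in C166 while 7 fell and 3 rose in C1.1. Fewer cells of a type and less RNA in each cell cannot be told apart in bulk libraries such as these. The count of higher genes was 5 to 8 without 1 library, with 5 without replicate 2 of C166 in normoxia, and 5 in the fit of the 12 libraries alone. The list was drawn up with earlier results of these data known. Myl9, the regulatory light chain of smooth muscle and nonmuscle myosin, measured 824, 753 and 789 CPM in C166 in normoxia and 102, 140.0 and 118 CPM at 24h. In C1.1 it measured 181, 218 and 181 CPM in normoxia and 93.8, 104 and 106 CPM at 24h. The lines were far apart in normoxia and overlapped at 24h, and the difference of the responses was 1.78 ± 0.15 (edgeR adjusted p = 1.4e-06).

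Acta2, smooth muscle alpha-actin, went the same way at a higher level. C166 held 3353, 4808 and 4436 CPM in normoxia and 669, 859 and 745 CPM at 24h, and C1.1 held 988, 1187 and 1025 CPM and then 349, 345 and 389 CPM. Every 24h library of C1.1 lay below every one of C166, and the fall was still smaller in C1.1, by 0.91 ± 0.17 (edgeR adjusted p = 0.0046). Cnn2, a calponin that binds actin, fell in C166 from 946 ± 70.8 to 699 ± 30.8 CPM (SD, n = 3) and rose in C1.1 from 324 ± 34.1 to 406 ± 42.1 CPM, a difference of 0.76 ± 0.13 (edgeR adjusted p = 0.0020). Tpm2, a tropomyosin that lies along actin filaments, fell in C166 from 668 ± 99.8 to 306 ± 10.5 CPM, while C1.1 held 192 ± 7.51 CPM in normoxia and 169 ± 28.2 CPM at 24h. Csrp1, a LIM protein of the actin cytoskeleton, was not called in C166 (198 ± 34.0 and 201 ± 28.0 CPM) and rose in C1.1 from 108 ± 4.04 to 221 ± 6.07 CPM. Tpm1, Cnn1 and Pdlim7 were the other members called, at 0.60, 1.21 and 0.70.

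Members with steep falls did not all share the difference, which was 0.00 ± 0.18 for Tagln and 0.19 ± 0.28 for Actg2 on the log2 scale. Tagln, transgelin, fell by 2.83 in C166 and by 2.83 in C1.1, from 540.2 ± 51.2 to 75.9 ± 10.9 CPM and from 143 ± 7.87 to 20.1 ± 3.59 CPM. Actg2, the enteric smooth muscle actin, fell by 4.07 in C166 and by 3.88 in C1.1. The contractile genes thus ranged from called differences to values near 0.

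Of 23 genes of the actin cytoskeleton and adhesion tested, 3 were higher and none lower, beside 1.39% and 0.940% of all genes. The list median was 0.19. Ankrd1, a cardiac ankyrin repeat protein and target of YAP, fell in C166 from 524, 782 and 668 CPM to 325, 339 and 347 CPM and stayed between 172 and 233 CPM in all 6 libraries of C1.1, a difference of 0.90 ± 0.18 (edgeR adjusted p = 0.0092). Tpm4 fell in C166 from 3669 ± 206 to 2757 ± 199 CPM and was not called in C1.1 (1285 ± 82.2 and 1395 ± 102 CPM). The fit of the 12 libraries alone did not call the difference of Tpm4 (edgeR adjusted p = 0.058), and it called 1 gene of the list. Filip1l, a filamin-interacting protein, differed by 0.81 ± 0.19. Tead1, the DNA-binding partner of YAP, differed by 0.69 ± 0.17 and comes from the list of YAP-TEAD targets. That list had 2 of 16 higher, Tead1 and Ankrd1, none lower and a median of 0.28. Leaving out 1 library ended the call for Tead1 in 7 of 12 fits and for Filip1l in 6. Lims1, Ilk and Rsu1, which bind each other at integrin tails, were higher by 1.04, 0.58 and 0.85 and were singled out after their values were seen.

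SRF binds the CArG box, a run of A and T between CC and GG, in promoters of many contractile genes, so the promoters of the called genes were searched for it. RefSeq promoters (GRCm38.p6, 250 bases before to 50 after the start, the first listed for a gene) matched 285 of the 350 called genes, 12 of them by an older symbol. A CArG box stood in 8 of 170 promoters of higher genes (4.71%), in 2 of 115 of lower genes (1.74%), in 1.38% of the 10133 promoters of tested genes and in 1.57% of all 27025. Among the called contractile genes an exact box in this stretch was found for Myl9 and Cnn2 alone. Boxes farther away or 1 base off the pattern were not searched for, nor were genes without a matched promoter. The other contractile genes may therefore still have one. The other higher genes with a box were Arrdc4, Glipr2, Lima1, Rhoj, Rnd3 and Rsu1. The motif equals its own reverse complement, so 1 search covers both strands. ACGTG, 1 form of the core of the HIF site, was searched on both strands, and other forms of the core were not. It stood in 24.1% of the promoters of higher genes, 30.4% of those of lower genes and 26.0% of those of tested genes. Both motifs were found for 3 called genes. A match is a description of the letters and was not tested as a site. The promoters of 3 higher genes are shown with the CArG box in capitals, on the strand of the gene: that of Myl9 at chr2:156775214-156775513 (plus), that of Cnn2 at chr10:79988350-79988649 (plus) and that of Rsu1 at chr2:13271366-13271665 (minus).
Myl9: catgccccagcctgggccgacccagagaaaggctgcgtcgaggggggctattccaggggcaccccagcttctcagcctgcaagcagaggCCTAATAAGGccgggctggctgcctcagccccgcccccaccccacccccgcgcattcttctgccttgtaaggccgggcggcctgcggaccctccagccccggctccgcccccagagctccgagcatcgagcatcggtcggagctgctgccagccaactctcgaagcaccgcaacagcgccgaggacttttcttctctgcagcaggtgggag
Cnn2: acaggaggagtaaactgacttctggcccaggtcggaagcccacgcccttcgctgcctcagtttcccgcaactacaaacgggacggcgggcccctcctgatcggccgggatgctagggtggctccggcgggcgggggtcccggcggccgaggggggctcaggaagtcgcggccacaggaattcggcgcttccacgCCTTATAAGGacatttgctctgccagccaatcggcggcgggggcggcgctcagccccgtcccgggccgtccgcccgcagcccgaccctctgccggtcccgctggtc
Rsu1: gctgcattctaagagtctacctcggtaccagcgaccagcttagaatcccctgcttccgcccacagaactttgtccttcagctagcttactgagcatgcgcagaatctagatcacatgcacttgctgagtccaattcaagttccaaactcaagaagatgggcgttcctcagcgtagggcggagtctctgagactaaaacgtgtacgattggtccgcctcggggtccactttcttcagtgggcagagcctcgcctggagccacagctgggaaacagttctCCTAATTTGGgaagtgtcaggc
The box began 161 bases before the start in Myl9, 56 before it in Cnn2 and at base 29 after it in Rsu1.

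Few secreted matrix genes were called, mostly higher, where 1.39% of all genes were called higher and 0.940% lower. Of 20 collagens tested 2 were higher and none lower (median 0.16), and of 25 matrix glycoproteins and proteoglycans 2 were higher and 1 lower (median 0.31). Without 1 library the higher genes numbered 1 to 4 and 1 to 5, the most without replicate 1 of C166 at 24h, and each list had 1 in the fit of the 12 libraries alone. Dcn, decorin, a proteoglycan that binds collagen and TGF-beta, fell in C166 from 22.8, 17.5 and 15 CPM to 3.21, 4.97 and 1.39 CPM. In C1.1 it measured 42.4, 37.2 and 29.8 CPM and then 66.5, 35.8 and 29.3 CPM, which overlap. The difference was 2.79 ± 0.45 (edgeR adjusted p = 0.0015). Timp3, an inhibitor of matrix metalloproteases, was 744, 744 and 582 CPM in C166 in normoxia and 707, 519 and 473 CPM at 24h, while C1.1 rose from 320.0, 290.4 and 279 CPM to 682, 703 and 709.6 CPM. The lines were apart for Timp3 in normoxia and overlapped at 24h (difference 1.52 ± 0.19, edgeR adjusted p = 0.00014).

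Col18a1, whose C-terminal fragment is endostatin, rose in C1.1 from 9.43 ± 0.69 to 19.3 ± 2.58 CPM and was not called in C166 (23.8 ± 8.29 and 20.8 ± 2.31 CPM), a difference of 1.23 ± 0.28 that 4 of 12 fits without 1 library did not keep. Col6a3, a chain of collagen VI, was near the limit of counting, at 1.98 ± 1.39 CPM in C166 in normoxia and at most 3.30 CPM in any library. Plod1, a lysyl hydroxylase of collagen listed here with the HIF targets, rose in C1.1 from 9.64, 10.8 and 6.92 CPM to 29.1, 28.2 and 24.6 CPM and was not called in C166 (14.8 ± 2.75 and 10.6 ± 1.44 CPM), with a difference of 2.06 ± 0.30 (edgeR adjusted p = 0.00065). Tgfbi, a matrix protein induced by TGF-beta, rose in both lines, from 6.94 ± 1.49 to 28.7 ± 5.42 CPM in C166, against 7.56 ± 0.15 to 64.1 ± 8.04 CPM in C1.1. Without 1 library the call of Tgfbi was lost in 8 of 12 fits and that of Thbs1 in 4. Thbs1, thrombospondin, a matrix inhibitor of angiogenesis, went the other way. It fell from 679 ± 88 to 433 ± 56.2 CPM in C166, against 126 ± 21.8 to 40.2 ± 9.79 CPM in C1.1, a difference of -1.0 ± 0.23 (edgeR adjusted p = 0.021).

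**Figure D2:**
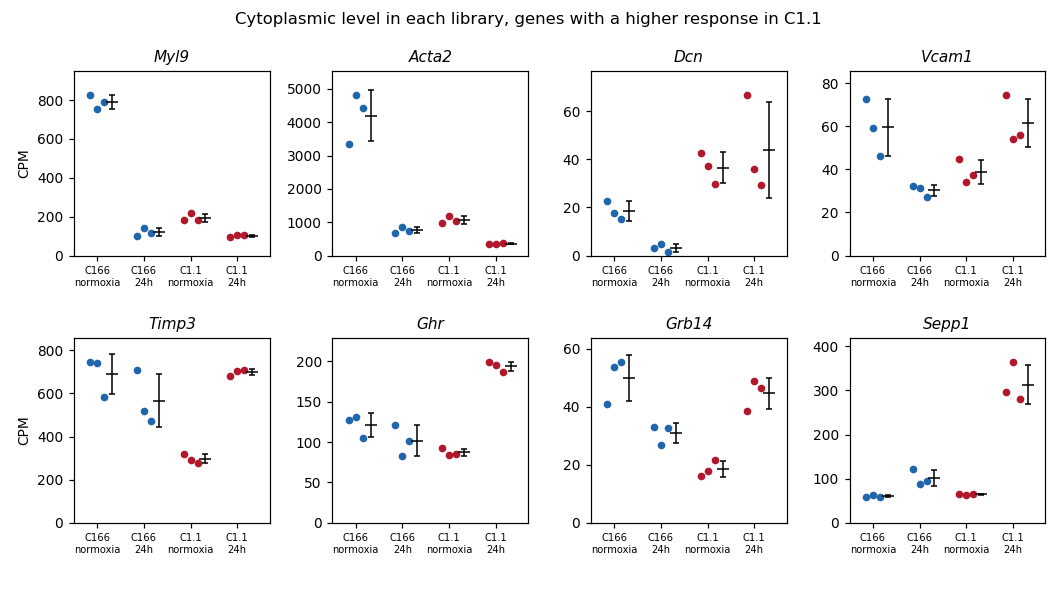
CPM in each cytoplasmic library (points) with the mean and SD of the 3 libraries of a group (bars), for C166 in normoxia and at 24h (blue) and C1.1 in normoxia and at 24h (red), each panel on its own linear axis from 0. Myl9 and Acta2 fell steeply in C166 from levels C1.1 did not have, Timp3, Ghr and Grb14 rose in C1.1 alone, and Sepp1 rose in both lines, to 313 ± 44.0 CPM in C1.1 and 101 ± 17.6 CPM in C166.

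Among chemokines and NF-kB targets the calls were on the higher side, where 1.39% of all genes were called higher and 0.940% lower. Of 16 tested, 3 were higher and none lower, with a median of 0.61. The count was 1 to 5 without 1 library, the most without replicate 1 of C166 in normoxia, and 1 in the fit of the 12 libraries alone. Vcam1, the adhesion receptor for leukocyte integrins, fell in C166 from 72.8, 59.4 and 46.2 CPM to 32.3, 31.2 and 27.3 CPM and rose in C1.1 from 45, 34.1 and 37.1 CPM to 74.3, 54.1 and 55.7 CPM. The libraries of the lines were apart in both conditions, on opposite sides, and the difference was 1.64 ± 0.24 (edgeR adjusted p = 0.00065). Cxcl12, the ligand of CXCR4, whose call was lost in 6 of 12 fits without 1 library, rose in C1.1 from 1348 ± 53.2 to 1865 ± 159 CPM and was not called in C166 (1639 ± 20.4 and 1471 ± 275 CPM). Tnfaip3, a brake on NF-kB signalling, rose in both lines, and its difference of 0.97 ± 0.25 was lost in 11 of the 12 fits without 1 library. Egr1, an immediate early transcription factor, fell in C166 from 17.7 ± 1.12 to 3.88 ± 2.08 CPM and was not called in C1.1 (14.9 ± 2.64 and 10.5 ± 1.97 CPM), a difference of 1.69 ± 0.36 (edgeR adjusted p = 0.014, and 0.080 in the fit of the 12 libraries alone). Klf6, an early response zinc finger factor, rose in both lines and by 0.68 ± 0.12 more in C1.1. Egr1 and Klf6 belong to another list, of 22 immediate early genes, and were the 2 called higher, with none lower. That list had 10 positive and 12 negative values and a median of -0.02.

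Genes of insulin, PI3K, mTOR and FOXO signalling were called in both directions, with a median of 0.07. Of 32 tested, 4 were higher and 2 lower, beside 1.39% and 0.940% of all genes. Ghr, the growth hormone receptor and on none of the lists, measured 128, 132 and 105 CPM in C166 in normoxia and 121, 83.0 and 101 CPM at 24h, which overlap, and rose in C1.1 from 92.6, 83.5 and 85.1 CPM to 199, 195 and 187 CPM. Its difference was 1.41 ± 0.16 (edgeR adjusted p = 6.3e-05). Grb14, an adaptor that inhibits the insulin receptor, fell in C166 from 50 ± 7.87 to 30.9 ± 3.42 CPM and rose in C1.1 from 18.6 ± 2.76 to 44.7 ± 5.38 CPM, a difference of 1.96 ± 0.23 (edgeR adjusted p = 8.0e-05).

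Igfbp6 and Igfbp3 bind insulin-like growth factors. Igfbp6 fell in C166, from 12.1, 9.71 and 11.4 CPM to 2.53, 5.01 and 2.50 CPM, and was not called in C1.1, at 11.3 ± 2.16 and 10.3 ± 0.73 CPM. Igfbp3 rose in C166 from 63.1, 41.9 and 43.5 CPM to 116, 64.9 and 79.2 CPM and fell in C1.1 from 265, 255 and 221 CPM to 124, 153 and 161 CPM. The difference was 1.59 ± 0.35 for Igfbp6 and -1.57 ± 0.25 for Igfbp3. The call of Igfbp6 was lost in 2 of 12 fits without 1 library and in that of the 12 libraries alone (edgeR adjusted p = 0.081), while Igfbp3 kept its call in all 21 alternatives. Every library of C1.1 lay above every library of C166 for Igfbp3 in both conditions, and the gap between the lines was smaller at 24h. Egfr, Lifr and Osmr, the receptors of EGF, LIF and oncostatin M, were higher by 1.25, 1.01 and 1.11, and were singled out after their values were seen.

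Further genes with a higher response had roles of several kinds. Sepp1, selenoprotein P, a carrier of selenium, rose in both, with the larger rise in C1.1 (difference 1.54 ± 0.17, edgeR adjusted p = 5.9e-05). Ptgis, the synthase of prostacyclin, fell in C166 from 24.9, 22.2 and 18.7 CPM to 6.01, 6.97 and 7.89 CPM and was not called in C1.1, at 52.7 ± 0.73 and 44.5 ± 5.32 CPM. Plac8, a cysteine-rich protein first known from placenta, was at 639 to 719 CPM in C166 in normoxia and at 2.24 to 2.91 CPM in C1.1, where it rose to 5.29 to 9.15 CPM. Its difference of 1.76 ± 0.24 is thus one of folds at levels far apart. Bmp4, a BMP ligand, rose in C1.1 from 62.1 ± 3.24 to 138 ± 11.1 CPM and in C166 from 66.7 ± 4.77 to 81.2 ± 5.85 CPM. Rspo3, which amplifies Wnt signalling, rose in C1.1 from 43.3 ± 3.6 to 104 ± 11.6 CPM and was not called in C166 (51.2 ± 14.6 and 62.5 ± 4.20 CPM). Tpd52l1, Gda and Npy4r were higher by 1.34, 1.34 and 1.38, of which Npy4r was lost in 8 of 12 fits without 1 library and Gda in 4. Rspo3 was lost in 4.

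Nearly all ribosomal protein genes had small positive values. Of 84 cytosolic ribosomal proteins tested, 78 had a positive difference and 1 was called, with a median of 0.21 beside -0.07 over all genes, and 36 rose in C1.1 against 9 in C166. The member called was Rpl4, which rose in C1.1 from 2018, 2027 and 2082 CPM to 2950.1, 3581 and 3506 CPM and was not called in C166 (1801 ± 94.7 and 1959.7 ± 76.1 CPM). Ribosomal protein genes have many processed pseudogenes, and reads shared with them make these levels uncertain, as they do for Npm1, Ldha and Tpi1. Translation initiation factors had 3 of 36 higher, beside 1.39% of all genes, and none lower. The 3 were Eif4b (0.46 ± 0.11), Eif3k (0.49 ± 0.11) and Eif3f (0.53 ± 0.14). The list had 15 positive and 21 negative values, a split close to that of all genes, and a median of -0.08. Without 1 library the count ran from 0 to 4, as the calls of Eif4b, Eif3f and Eif3k were lost in 9, 10 and 2 of 12 fits. Npm1, nucleophosmin, a nucleolar chaperone of ribosome assembly, fell in C166 from 2730.5 ± 184 to 1651 ± 151 CPM and was not called in C1.1 (1995 ± 85.2 and 1742 ± 232 CPM), a call lost in 8 of 12 fits.

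In autophagy and the lysosome 3 of 31 genes were higher and 1 lower, beside 1.39% and 0.940% of all genes. The lower gene was Bnip3. Gabarap, an ATG8 protein of autophagosome membranes, rose from 250.3 ± 32.6 to 371 ± 27.9 CPM in C166, against 196 ± 12.2 to 444 ± 49.0 CPM in C1.1. Its call was lost in 6 of 12 fits without 1 library and in that of the 12 libraries alone. Map1lc3a, another ATG8 protein, rose in C1.1 from 4.92 ± 0.27 to 12.9 ± 1.47 CPM, and its difference of 1.18 ± 0.30 was lost in 11 of 12 fits without 1 library. Npc2, a lysosomal cholesterol carrier, rose in C1.1 from 155 ± 9.30 to 301 ± 13.6 CPM and was not called in C166 (214 ± 26.5 and 254 ± 33.7 CPM).

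Most enzymes of sterol synthesis rose in both lines, and every called difference was a lower response in C1.1. Of 27 tested, 6 had a lower response and none a higher one, 24 had a negative difference, and the median was -0.44. In C166 25 of the 27 rose, in C1.1 20. Mvd, which makes isopentenyl diphosphate from mevalonate diphosphate, rose in C166 from 8.58, 11.2 and 14.4 CPM to 96.6, 70.1 and 105 CPM and in C1.1 from 5.77, 5.65 and 5.41 CPM to 14.5, 15.5 and 14.0 CPM. The groups did not overlap within either line, and the difference was -1.61 ± 0.25 (edgeR adjusted p = 0.0011). Acat2, the thiolase of the first step, rose from 38.3 ± 8.66 to 185 ± 34.2 CPM in C166, against 39.7 ± 3.12 to 77.6 ± 11.8 CPM in C1.1. Hsd17b7, a sterol reductase, rose in C166 from 30.4 ± 4.04 to 73.9 ± 16.2 CPM and was not called in C1.1 (21.6 ± 1.61 and 25.1 ± 2.95 CPM). Fdft1, squalene synthase, differed by -0.78 ± 0.15, and Nsdhl and Lss were the remaining calls, at -1.12 and -0.69. Acat2 started from overlapping levels in the lines, so its difference lay at 24h.

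Fatty acid synthesis behaved alike, with 6 of 16 lower and none higher, beside 0.940% and 1.39% of all genes, and a median of -0.40. Acly, which makes cytosolic acetyl-CoA from citrate, rose in C166 from 104, 148 and 159 CPM to 438, 421 and 372 CPM and in C1.1 from 137, 149.8 and 148 CPM to 164, 178 and 202 CPM. The lines overlapped in normoxia and were apart at 24h, with a difference of -1.26 ± 0.17 (edgeR adjusted p = 0.00032). Fasn, fatty acid synthase, rose in C166 from 221, 277 and 314 CPM to 648, 578 and 552 CPM and was not called in C1.1, where it measured 369, 431 and 416 CPM and then 395, 349 and 425 CPM. The lines thus changed places, with C1.1 higher in normoxia and C166 higher at 24h (difference -1.19 ± 0.16, edgeR adjusted p = 0.00036).

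Acaca, acetyl-CoA carboxylase, rose in C166 from 111 ± 8.28 to 198 ± 11.6 CPM and lay at 173 ± 9.25 and 196 ± 12.9 CPM in C1.1, so the lines met at 24h. Elovl6, an elongase, rose in C166 from 78.7 ± 8.18 to 117 ± 33.5 CPM and fell in C1.1 from 89.8 ± 2.28 to 67.6 ± 2.25 CPM. Scd2, a desaturase, rose in both lines, from 215 ± 28.9 to 1275 ± 468 CPM in C166, where replicate 1 at 24h held 1799.6 CPM against 902 and 1123 CPM, and from 307 ± 23.6 to 845 ± 7.64 CPM in C1.1. In the fit of the 12 libraries alone Scd2 was not called (edgeR adjusted p = 0.059). Fads2, a further desaturase, was called at -0.90. The counts of both lipid lists stayed at 5 to 8 and 5 to 7 without 1 library and were 5 and 4 in the fit of the 12 libraries alone.

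**Figure D3:**
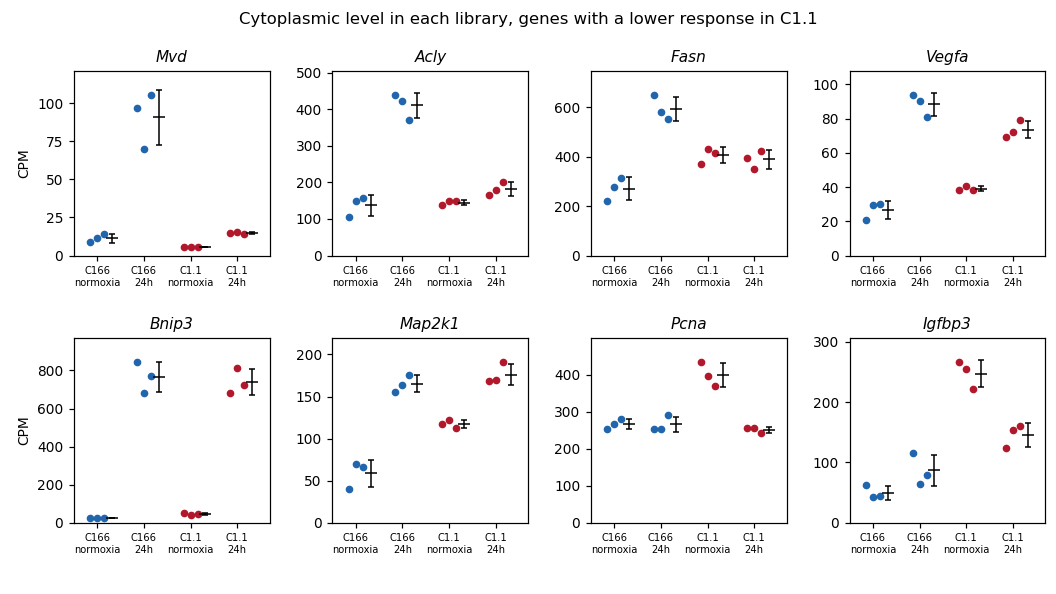
CPM in each cytoplasmic library (points) with the mean and SD of the 3 libraries of a group (bars), for C166 in normoxia and at 24h (blue) and C1.1 in normoxia and at 24h (red), each panel on its own linear axis from 0. Mvd and Acly were lower in C1.1 at 24h, Bnip3 and Map2k1 met the level of C166 at 24h from a higher level in normoxia, and Igfbp3 changed in opposite directions.

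Most HIF targets rose in both lines, and most were not called for the difference. Of 36 tested, 33 rose in C166 and 33 in C1.1, 4 had a lower and 2 a higher response in C1.1 (beside 0.940% and 1.39% of all genes), and the median was -0.22. The lower count was 2 to 6 without 1 library, with 2 without replicate 2 of C166 at 24h, replicate 1 or 2 of C1.1 in normoxia or replicate 2 of C1.1 at 24h, and it was 2 in the fit of the 12 libraries alone and 7 in DESeq2. Vegfa, the angiogenic growth factor, rose in C166 from 20.8, 29.4 and 29.9 CPM to 93.6, 90.4 and 81 CPM and in C1.1 from 38.1, 40.7 and 38.4 CPM to 69.3, 72.2 and 78.9 CPM. C1.1 was higher in normoxia and lower at 24h with no overlap, and the difference was -0.81 ± 0.17 (edgeR adjusted p = 0.014). In the fit of the 12 libraries alone its adjusted p was 0.051. Bnip3, a mitophagy receptor, rose from 25.6 ± 1.19 to 765 ± 79.2 CPM in C166, against 45.8 ± 4.84 to 739 ± 68.7 CPM in C1.1. The 24h libraries overlapped, and the difference of -0.89 ± 0.16 went with the higher level of C1.1 in normoxia. Ndrg2, of the NDRG family and on none of the lists, showed the same form on a larger scale, from 1.81 ± 0.66 to 73.8 ± 2.09 CPM in C166, against 15.1 ± 1.20 to 114 ± 7.89 CPM in C1.1. Ddit4, an mTORC1 inhibitor, and Slc2a1, given with glycolysis, were the remaining HIF targets called lower, at -1.1 and -1.01.

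Hif1a itself, the hypoxia-stabilised HIF subunit, rose from 589 ± 12.9 to 919 ± 108 CPM in C166, against 365 ± 19.1 to 745 ± 43.0 CPM in C1.1, a difference of 0.39 ± 0.12 that did not pass (edgeR adjusted p = 0.085) and passed in 3 of 21 alternatives. Egln1, a HIF prolyl hydroxylase and HIF target, had 0.53 ± 0.14 (edgeR adjusted p = 0.059). None of the 9 tested HIF subunits and oxygen sensors was called by edgeR, while 2 had an unadjusted p under 0.05, and DESeq2 called 2 and limma 1.

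Glycolysis had 3 of 22 lower and none higher, with a median of -0.21 and 18 negative values, while 19 of 22 rose in each line. The count was 1 to 4 without 1 library, with 1 without replicate 2 of C166 at 24h or replicate 1 or 2 of C1.1 in normoxia. Tpi1, triosephosphate isomerase, rose from 549 ± 26.9 to 3157 ± 61.7 CPM in C166, against 986 ± 43.0 to 3708 ± 205 CPM in C1.1, where it was the higher of the lines in both conditions (difference -0.61 ± 0.10, edgeR adjusted p = 0.0023). Slc2a1, the glucose transporter GLUT1, rose from 28.4 ± 5.48 to 130.1 ± 24.0 CPM in C166, against 40.5 ± 3.69 to 92.1 ± 11.5 CPM in C1.1. Ldha, lactate dehydrogenase A, differed by -0.49 ± 0.11. Slc2a1 was lost in 5 and Ldha in 3 of 12 fits without 1 library. Pgm2, a phosphoglucomutase listed with glycogen metabolism, differed by -0.71 ± 0.13, from 32.6 ± 5.01 to 241 ± 12 CPM in C166, against 50.1 ± 1.65 to 227 ± 17.1 CPM in C1.1.

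The pentose phosphate enzymes G6pdx and Pgd differed by -0.78 ± 0.18 and -0.62 ± 0.12. G6pdx rose in C166 from 74.7 ± 8.29 to 123 ± 26.4 CPM and stayed at 132 ± 11.3 and 127 ± 16.2 CPM in C1.1. Its call was lost in 7 of 12 fits without 1 library. In the list of NRF2 targets that holds them, 2 of 24 were lower and 1 higher, Gstm1, a glutathione transferase, at 0.60 ± 0.14 and lost in 5 of 12 fits.

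Map2k1, the kinase MEK1, rose in C166 from 40.5, 69.6 and 65.7 CPM to 156, 164 and 176 CPM and in C1.1 from 117, 122 and 112 CPM to 169, 169 and 190.4 CPM. C1.1 was higher in normoxia, the 24h libraries overlapped, and the difference was -0.90 ± 0.19 (edgeR adjusted p = 0.012). Its level in replicate 1 of C166 in normoxia was below the others, and the call was kept without that library. In the fit of the 12 libraries alone its adjusted p was 0.060. Of 25 genes of the Ras-MEK-ERK cascade, 1 was lower (Map2k1) and 1 higher, Araf, a kinase upstream of MEK1, at 0.66 ± 0.14 and lost in 4 of 12 fits without 1 library.

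The list of ATF4 targets, with enzymes of amino acid synthesis, had 5 of 25 lower and none higher, beside 0.940% and 1.39% of all genes. Its median of -0.51 was the lowest of the lists plotted beside all genes. Psat1, of serine synthesis, rose in C166 from 513, 648 and 633 CPM to 838, 904 and 953 CPM and was not called in C1.1 (629.7 ± 10.4 and 632 ± 15.7 CPM), a difference of -0.58 ± 0.12 (edgeR adjusted p = 0.011). Phgdh, the first enzyme of that pathway, fell in C1.1 from 161 ± 13.7 to 94.6 ± 3.63 CPM, and Shmt2, which makes glycine in mitochondria, from 184 ± 8.25 to 104 ± 19.3 CPM. Neither was called in C166. Phgdh was lost in 4 of 12 fits without 1 library. Nupr1, a stress-induced chromatin protein, rose in both lines, and its difference of -0.93 ± 0.23 was lost in 9 of 12 fits without 1 library. Asns, asparagine synthetase, was called at -0.56. Atf4 itself had 0.05 ± 0.13. The count of the list was 2 to 5 without 1 library, with 2 without replicate 1 or 2 of C1.1 in normoxia or replicate 2 of C1.1 at 24h, and 2 in the fit of the 12 libraries alone.

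Among genes of DNA replication, every called difference was on the lower side. Of 34 tested, 31 had a negative difference, beside 8406 of 14998 over all genes, and the median was -0.29. In C1.1 25 of the 34 fell against 15 in C166, beside 18.1% and 17.5% of all genes. None was higher and 8 were lower, beside 1.39% and 0.940% of all genes. The 8 were Pcna, Mcm2, Mcm3, Mcm4, Mcm5, Mcm7, Gins1 and Uhrf1. Pcna, the sliding clamp, measured 253, 267 and 279 CPM in C166 in normoxia and 254, 253 and 290.2 CPM at 24h, and fell in C1.1 from 433, 396 and 369 CPM to 256, 255 and 241 CPM. The level of C1.1 was above C166 in normoxia and overlapped it at 24h (difference -0.67 ± 0.12, edgeR adjusted p = 0.0044). Its processed pseudogene Pcna-ps2 was called too, at -0.81, and reads shared between them would make the level of Pcna uncertain. Mcm7, of the replicative helicase, rose in C166 from 205 ± 29.1 to 246 ± 17.6 CPM and fell in C1.1 from 317 ± 21.7 to 242 ± 9.21 CPM. Mcm7 was at an edgeR adjusted p of 0.050 in the fit of the 12 libraries alone and not called there. Mcm5 fell in both lines, from 376 ± 52.0 to 298 ± 14.1 CPM in C166, against 303 ± 19.2 to 157 ± 17.9 CPM in C1.1. The call of Mcm5 was lost in 4 of 12 fits without 1 library and in that of the 12 libraries alone. Of the 8 replication genes, Pcna, Mcm3 and Mcm7 alone were called in every fit without 1 library. None of 30 mitosis genes was called by edgeR, with 3 at an unadjusted p under 0.05, none called by DESeq2 and 1 by limma, and their median was -0.09. The count of the replication list was 3 to 9 without 1 library, with 3 without replicate 2 of C166 at 24h or replicate 2 of C1.1 at 24h, and 1 in the fit of the 12 libraries alone.

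**Figure D4:**
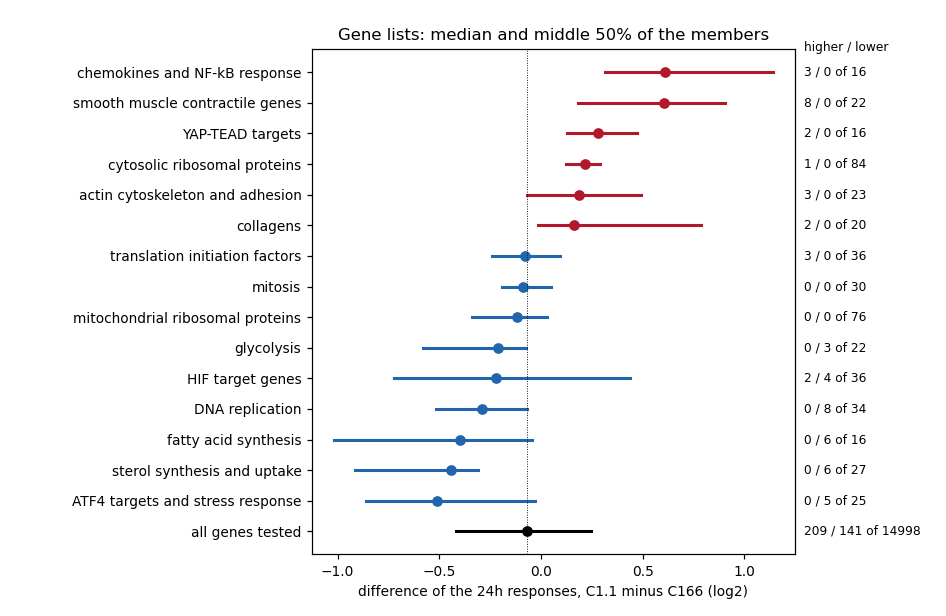
Median (point) and middle 50% of the members (line) of the difference of the 24h responses, C1.1 minus C166, on the log2 scale, for 15 gene lists and for all 14998 genes tested, with the number of members called higher and lower and the number tested at the right. Smooth muscle contractile genes (8 higher of 22) and the sterol and fatty acid lists (6 lower of 27 and of 16) lie to either side of the median of all genes at -0.07 (dotted line).

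Chaperones and single genes made up the rest of the named lower responses. Hsp90aa1, the inducible cytosolic HSP90, fell in C1.1 from 813 ± 63.4 to 456 ± 22.3 CPM and was not called in C166 (1081 ± 110.3 and 921 ± 111 CPM). Both it and Hsph1 were lost in 4 of 12 fits without 1 library. Hsph1, an HSP110 chaperone, fell in C1.1 from 153, 114 and 131 CPM to 59.5, 38.4 and 40.5 CPM, while the C166 libraries scattered from 85.5 to 182 CPM. Trib2, a pseudokinase, rose in C166 from 17.6, 18.1 and 18.5 CPM to 39.7, 50 and 42.0 CPM and lay at 40.5 to 47.4 CPM in all 6 libraries of C1.1 (difference -1.24 ± 0.15, edgeR adjusted p = 0.00014). Spaca6, known from sperm, rose in C166 from 17.7 ± 1.67 to 39.3 ± 5.20 CPM and was not called in C1.1 (32.5 ± 4.09 and 27.4 ± 4.33 CPM). U90926 fell in C166 from 132 ± 16.8 to 15 ± 3.47 CPM, and in C1.1 from 3.6 ± 0.54 CPM to 0.13, 0 and 0.038 CPM, and its call was lost in 2 of 12 fits without 1 library. Kcnq1ot1, a nuclear-retained imprinted RNA, fell in C1.1 from 69.4 ± 5.14 to 39.6 ± 2.19 CPM. Of 7 such RNAs tested it was the 1 called, 6 were negative, and the median was -0.76. Malat1 and Neat1, the most abundant of them, differed by -0.27 ± 0.23 and -0.31 ± 0.17 (edgeR adjusted p = 0.61 and 0.40). The proteasome subunits Psmd2, Psmd3, Psmd11 and Psmc4 were called lower at -0.48, -0.78, -0.74 and -0.58 and were singled out after their values were seen. Of these, Psmd3 alone was called in every fit without 1 library. The proteasome was not among the lists, so no share of its genes stands beside the 0.940% of all genes called lower.

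Akr1b3, the aldose reductase that makes sorbitol from glucose, was among the genes that changed in opposite directions. It rose in C166 from 153, 143 and 171 CPM to 176, 542 and 292 CPM and fell in C1.1 from 105, 96.9 and 77.2 CPM to 80.3, 37.0 and 36.7 CPM, a difference of -1.97 ± 0.41 (edgeR adjusted p = 0.013, and 0.070 in the fit of the 12 libraries alone). Replicate 1 of C1.1 at 24h lay within the normoxia range of that line, and the C166 libraries at 24h were far apart. Bpgm, which makes the 2,3-bisphosphoglycerate of red cells, rose in C166 from 39.0 ± 3.08 to 58.4 ± 16.8 CPM and fell in C1.1 from 31.9 ± 1.53 to 20.2 ± 3.39 CPM. In all, 47 genes were called in both lines with opposite signs, 28 of them higher and 19 lower in C1.1.

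The levels of the lines were compared within each condition. Of the 209 higher genes, 154 had every normoxia library of C1.1 below every one of C166 and 11 the reverse. At 24h 49 were below and 97 above. Of the 141 lower genes, 90 were above and 21 below in normoxia, and 24 above and 80 below at 24h. The share of all genes tested on each side was not counted, so these counts by side have nothing to be set against. The libraries of the lines were apart in normoxia alone for 63 higher and 37 lower genes, at 24h alone for 44 and 30, at both times on the same side for 60 and 45, and at both on opposite sides for 42 and 29. Among all genes tested 17.4%, 19.1%, 27.8% and 1.1% fell in these classes, and the libraries overlapped at both times for 34.5%. Normoxia and 24h did not overlap in at least 1 line for all 350 called genes, and for 67.2% of all genes tested. These classes come from the libraries behind the difference and only describe it.

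The 6 cytoplasmic libraries taken after 2h of hypoxia have no weight in the difference itself. They share the filter and the fitted spread with it, so the called genes were chosen partly with them. At 2h 118 of the 209 higher genes (among all genes, 18.4% were called lower) were lower in C1.1 than in C166 and 20 were higher (among all genes, 15.6%). Of the 141 lower genes, 57 were higher and 27 lower in C1.1 at 2h. On the log2 scale the line difference at 2h was -1.82 for Cnn2, -2.33 for Acta2, -1.92 for Tpm2, -1.01 for Timp3 and -0.95 for Grb14, all called lower. Dcn and Ptgis, at 0.96 and 1.25, were higher in C1.1 already. Among the lower genes Igfbp3 had 1.89, Ndrg2 2.44, Tpi1 0.67, Map2k1 0.59 and Mcm7 0.41 at 2h, but Mvd -1.80, Hsd17b7 -1.11 and Thbs1 -2.83. For Vegfa, Bnip3, Acly and Slc2a1 the line difference at 2h was -0.22, -0.09, -0.22 and -0.18 and was not called.

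The same difference was measured in the nucleus, in 12 other libraries from the same fractionation and fitted on their own, where 748 of 15735 genes were called (4.75%, with 2.89% higher and 1.87% lower). Cells were split into the fractions, so nuclear libraries may come from the same dishes as cytoplasmic ones. Of the 350 genes called in the cytoplasm 349 were tested in the nucleus, 341 had the same sign there, and 189 were called in the same direction and none in the opposite one. Over the 14476 genes tested in both fractions the sign was shared by 66.1%. By direction, 129 of 208 higher and 60 of 141 lower genes were called in the nucleus, with median nuclear differences of 0.67 and -0.51. The 189 are 54.2% of the cytoplasmic and 25.3% of the nuclear calls.

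Of 22 contractile genes 8 were called higher in the nucleus and none lower, beside 2.89% and 1.87% of all genes tested there. Myl9 had 2.01 ± 0.15 and Acta2 1.27 ± 0.15. Of 20 collagens 6 were higher and 1 lower there. The 25 matrix glycoproteins and proteoglycans had 4 higher and 4 lower in the nucleus, with a nuclear median of -0.005. Dcn had 3.56 ± 0.26 and Timp3 1.44 ± 0.16 there, and Ghr, on none of the lists, 1.45 ± 0.16. Lipid genes were called there too, with Acly at -1.11 ± 0.12, Fasn at -0.89 ± 0.13 and Scd2 at -1.03 ± 0.15. In all, 11 of 27 sterol and 9 of 16 fatty acid genes were called lower in the nucleus, beside 1.87% of all genes tested there. Vegfa had -0.76 ± 0.14 (edgeR adjusted p = 0.0014 in the nucleus) and Map2k1 -0.50 ± 0.12. Other genes had a cytoplasmic difference with a small nuclear value that was not called, namely Pcna (-0.13 ± 0.13), Ldha (-0.08 ± 0.12), Rpl4 (0.23 ± 0.10), Eif4b (0.12 ± 0.09), Irf9 (0.07 ± 0.22) and Tgfbi (0.29 ± 0.22). The cytoplasmic call of Irf9, like that of Tgfbi, was lost in 8 of 12 fits without 1 library. The contrast between fractions was not tested for them.

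**Figure D5:**
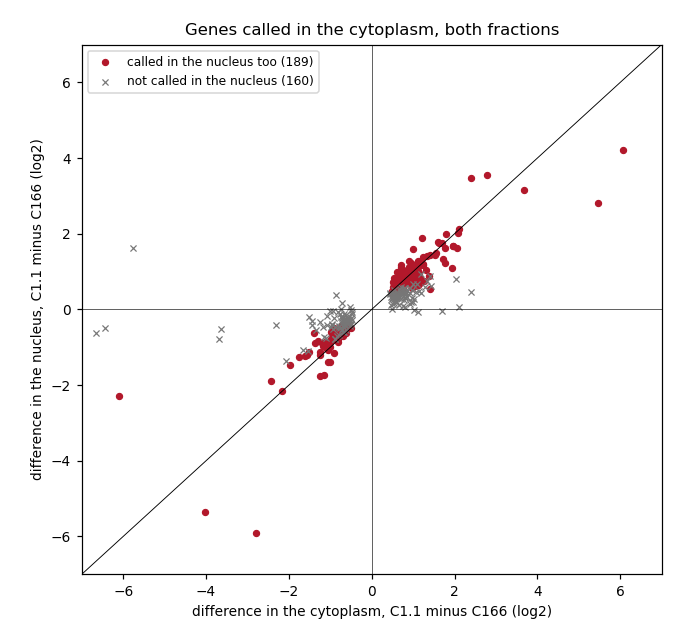
Difference of the 24h responses, C1.1 minus C166, in the cytoplasm (horizontal axis) and in the nucleus (vertical axis), log2, for the 349 genes called in the cytoplasm and tested in both (2 lie outside the axes). Red circles are the 189 genes called in the nucleus too, all on the side of their cytoplasmic sign, and grey crosses the 160 that were not.

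Several gene groups of interest for hypoxia gave no call for the difference. By edgeR none was called among 76 genes of oxidative phosphorylation (median 0.02), 76 mitochondrial ribosomal proteins (median -0.12), 16 of the unfolded protein response (median -0.15), 7 sirtuins, 18 JmjC demethylases, 17 polycomb genes with Sfmbt2, 14 of the miRNA machinery or 14 of iron handling. At an unadjusted p under 0.05 these lists held, in that order, 8, 21, 3, 1, 3, 2, 2 and 3 genes. DESeq2 called 2, 2, 1, 0, 0, 0, 0 and 1 and limma with sample weights 4, 6, 0, 0, 1, 0, 1 and 1. Over all genes tested the unadjusted p was under 0.05 for 2400.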

How the data were processed

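Cells were fractionated, rRNA was depleted with Ribo-Zero, and TruSeq stranded libraries were sequenced from both ends. Per the labels and methods the authors aligned reads with Bowtie2 2.2.2 and TopHat2 2.0.11 to GRCm38 with Ensembl genes, and the submitters' processing notes add, with no role given, featureCounts, Cuffdiff, edgeR and Cufflinks 2.2.1. The deposited table holds raw counts per gene symbol, with no normalization. Whether counting used strand is not given in the sources used here. Normalized counts and the columns of the authors' own DESeq2 comparisons (fold changes, standard errors and p-values) in the table were not used.

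Counts were analysed in R 4.3.3 with edgeR 4.0.16. The 18 cytoplasmic libraries in 6 groups were fitted together, with filterByExpr, TMM factors and the quasi-likelihood F-test, and the 18 nuclear libraries separately. Called means a Benjamini-Hochberg adjusted p under 0.05 over all genes tested. Standard errors are the absolute log2 change over the root of F. The fitted spread between replicates corresponded to a coefficient of variation of 0.213, and replicates differed by 12.3 to 57.7 times Poisson noise, so none is a copy. The precision of a level is given by its SD over 3 libraries. Alternatives were DESeq2 1.42.0, limma 3.58.1 with sample weights, other factors and filters, the 12 libraries alone, a replicate block, robust dispersions and each library left out. List counts under these were added after seeing the data.

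Members and gene lists were chosen with earlier results of these data known. The rule for naming genes takes the 12 largest differences in each direction among calls of more than median abundance whose 24h and normoxia libraries do not overlap in at least 1 line, from each list at most 4 calls, by p, the 6 largest differences among genes called in both lines with opposite signs, the 5 most abundant called genes in each direction, and Vegfa, Map2k1, Hif1a, Sfmbt2 and Acta2. Symbols of predicted genes are left out of the first set. Sequences are from RefSeq (GRCm38.p6) and the study's oligo table. The symbol March8 stands on 2 rows, both kept.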

Additional observations from a re-analysis of the deposited data

Results flagged for a closer look

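The response to 24h of hypoxia differed between the lines, by the test of the difference itself, for 350 genes, so each of them meets the criterion of a contrast that differs between 2 groups. The 6 of them with the largest difference among those that changed in opposite directions are given here. Gm15884, annotated as antisense on chromosome 6, had 73, 9, 0 and 38 counts in C166 in normoxia, C166 at 24h, C1.1 in normoxia and C1.1 at 24h. Its fitted difference of 9.72 depends on the group at 0, and against a floor of 3 counts over that group it was at least 14.0-fold higher at 24h in C1.1. Ppp1r18os, also an antisense gene, had 3, 51, 71 and 9 counts and a fitted difference of -6.66, lost in 7 of 12 fits without 1 library. Strand use in counting is not given in the sources used here, so reads of either gene and of the gene opposite cannot be told apart.

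Apol9a, an apolipoprotein L, had a difference of 6.07 at mean levels of 0.16 to 5.10 CPM, where replicate 1 of C166 in normoxia held 11.5 CPM against 1.87 and 1.89 CPM. Clec2d, a C-type lectin, fell in C166 from 27.0 ± 6.67 to 15.1 ± 1.46 CPM and rose in C1.1 from 6.26 ± 1.55 to 15.2 ± 2.82 CPM, a difference of 2.12. The nuclear difference was also 2.12, but without a fall in C166, as the log2 responses there were 0.16 in C166 and 2.28 in C1.1. Rgs2, a regulator of G protein signalling, had a difference of -2.17 that was lost in 11 of 12 fits without 1 library. Akr1b3 had -1.97. Tmem45a, noticed after its values were seen, had 0 counts in C166 in normoxia and 315 at 24h, at least 99.7-fold higher against 3 counts over the group, and 479 and 4991 counts in C1.1.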

How the results depend on the processing

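DESeq2 called 821 genes (449 higher, 372 lower), the table with no filter on low counts 710 (377 and 333), the fit of the 12 libraries alone 144 (98 and 46) and limma with sample weights 1069 (641 and 428), against 350 (209 and 141) as reported. Upper-quartile and RLE factors, a stricter filter and robust dispersions gave counts within 1.5 times of it. Without 1 library the counts ran from 184 to 503, with 118 to 310 higher and 66 to 232 lower. The count of 503 was without replicate 1 of C166 in normoxia and that of 184 without replicate 2 of C1.1 in normoxia. No called gene changed sign under any of these. Of 86 named genes that were called, 45 kept their call under every alternative. Genes called in both fractions numbered 189, and 108 with the 12 libraries of each fraction alone. Sfmbt2, not called, ran from -0.081 to 0.125 over the 12 fits, below 0 without replicate 2 of C166 in normoxia, replicate 2 of C166 at 24h or replicate 1 of C1.1 in normoxia. The cause of these changes was not tested. Same-numbered libraries deviated together in 7 of 18 pairs (correlation over 0.1, range -0.07 to 0.41). Their median correlation was 0.065, against -0.049 for libraries with other numbers. All 3 same-numbered pairs of C1.1 in normoxia and at 24h were over 0.1 (0.136 to 0.406). What same-numbered libraries shared is not given in the labels, and the fit as reported had no replicate block. With the replicate block 352 genes were called, 323 of them among the 350, and 193 in both fractions, and 7 of 12 libraries correlated best with their own number. Depth limits genes such as Col6a3 and Gm15884, which rest on few counts.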
